A study of Mus musculus with 12 samples.

Results

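The genes described here form the growth axis through which insulin-like growth factors and myostatin act on skeletal muscle: Igf1, Igf2, Igf1r, Igfbp3, Igfbp4, Igfbp5, Mstn, Acvr2b, Fst and Fstl1. These 10 genes were chosen by name, with earlier results of these data known. Each was read from the probe set with the highest mean among those annotated to its symbol alone. Of the 10 genes, 9 had such a probe set, and all 9 were among the 11345 genes tested. Mstn had none in the annotation used and was not analysed here. Skeletal muscle RNA from 12 mice was measured on 12 one-colour arrays. The groups were GPR120 knockout (KO) mice on a high fat diet (HFD), KO mice on a normal diet (ND), wild-type (WT) mice on HFD and WT mice on ND, with 3 mice in each. GPR120, encoded by Ffar4, senses long-chain fatty acids at the cell surface. All mice were 16 weeks old and of a mixed 129/Sv and C57BL/6 background. The sources used here do not give how the knockout was made, which muscle was taken, or the sex and litter of the mice.

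IGF1 and IGF2 are secreted growth factors that bind the receptor encoded by Igf1r and, through the kinases PI3K, AKT and mTOR, raise protein synthesis and restrain the FoxO factors that drive muscle breakdown. IGF binding proteins hold the ligands in blood and tissue and set how much of them reaches the receptor. Myostatin, encoded by Mstn, restrains muscle mass: it binds the type II receptor encoded by Acvr2b and signals through SMAD proteins, and follistatin, encoded by Fst, captures it and the related activins.

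The arrays gave bright muscle signal. Tnnt3, Acta1 and Ckm, which encode proteins of the contractile apparatus and its energy supply, averaged 13.97, 13.68 and 13.58 on the log2 scale. The median signal of an array was 3.87 to 4.17, and arrays correlated with their own group at a mean r of 0.966 to 0.975. The genotype label could not be checked, because the mean of the Ffar4 probe set over the 12 arrays was below the signal filter of 3.78. It read 3.19, 2.76 and 0.98 in KO HFD and 3.22, 3.88 and 0.33 in KO ND mice. In WT HFD mice it read 1.28, 2.40 and 0.56, and in WT ND mice −0.19, 2.26 and −1.39. The KO groups thus did not read lower. RNA integrity was read from beta-actin and Gapdh control probe sets as a 3′ to 5′ log2 ratio, which was 0.16 ± 0.13 in KO HFD, 0.07 ± 0.06 in KO ND, 0.18 ± 0.02 in WT HFD and −0.02 ± 0.09 in WT ND mice (SD, n = 3). This ratio, the mean of both controls, averaged higher on HFD in each genotype, with overlap in KO mice. In WT mice the beta-actin ratio was 0.09, 0.42 and 0.14 on ND and 0.59, 0.64 and 0.58 on HFD. The Gapdh ratio of WT mice stayed between −0.28 and −0.24 on both diets. The part of the averaged ratio in the diet results was tested only as a covariate. The groups carry separate ranges of mouse numbers, so diet or genotype cannot be told apart from cohort. P-values rest on the spread between mice within groups, pooled over all groups of 3 mice and drawn towards that of genes of similar signal.

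The promoters of 3 genes called in a diet comparison below are shown for their sequence context. They come from RefSeq on the build GRCm38.p6, run 5′ to 3′ on the gene's strand, and cover 250 bases before to 50 bases after the start. RefSeq windows were found for 9 of the 10 genes; Fst had none. Capitals mark TATA-like matches (TATNTA) in Igfbp3 and Igfbp5 and GC boxes (GGGCGG) in Fstl1. The windows lie at chr11:7213874-7214173 (minus strand) for Igfbp3, chr1:72874816-72875115 (minus strand) for Igfbp5 and chr16:37776805-37777104 (plus strand) for Fstl1.
Igfbp3: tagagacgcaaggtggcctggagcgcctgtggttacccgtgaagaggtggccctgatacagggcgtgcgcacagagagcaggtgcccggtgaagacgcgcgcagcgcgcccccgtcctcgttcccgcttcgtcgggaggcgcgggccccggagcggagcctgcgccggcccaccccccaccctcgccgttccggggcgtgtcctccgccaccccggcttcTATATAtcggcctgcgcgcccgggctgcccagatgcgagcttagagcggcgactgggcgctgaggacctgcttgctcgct
Igfbp5: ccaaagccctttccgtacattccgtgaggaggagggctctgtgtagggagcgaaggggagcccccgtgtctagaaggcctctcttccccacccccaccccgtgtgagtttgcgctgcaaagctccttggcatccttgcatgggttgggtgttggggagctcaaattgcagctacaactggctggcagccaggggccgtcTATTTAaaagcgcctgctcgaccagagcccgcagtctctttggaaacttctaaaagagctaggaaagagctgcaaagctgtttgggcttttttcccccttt
Fstl1: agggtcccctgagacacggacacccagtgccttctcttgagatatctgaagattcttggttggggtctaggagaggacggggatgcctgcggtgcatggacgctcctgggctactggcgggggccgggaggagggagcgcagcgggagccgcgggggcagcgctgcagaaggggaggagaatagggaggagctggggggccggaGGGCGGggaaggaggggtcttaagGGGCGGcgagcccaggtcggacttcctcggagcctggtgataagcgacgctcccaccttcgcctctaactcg

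The Igfbp3 window held TATATA with its first base at −30 from the start, which matches on both strands. The Igfbp5 window held TATTTA at −51, and the Fstl1 window held GC boxes at −46 and −22. TATNTA was present on either strand in 27.2% of 32851 mouse promoter windows of the same length and GGGCGG in 35.7%. The TATNTA pattern was chosen after the windows had been read. The GC content was 71.7% in Igfbp3, 56.3% in Igfbp5 and 66.7% in Fstl1, against a median of 52.7% over all windows. None of the 3 windows held TATAAA, the FoxO core TGTTTAC, the SMAD box GTCTG or the glucocorticoid half-site AGAACA on either strand. These letters were present in 13.6%, 3.65%, 49.6% and 19% of all windows. A match or its absence describes these letters only.

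The genes called with diet averaged over the genotypes were 2 IGF binding proteins and both follistatin-type genes. With the diet effect averaged over the genotypes, limma called 4 of the 9 genes tested at an adjusted p under 0.05. Igfbp5 and Fstl1 rose, and Igfbp3 and Fst fell. The Fstl1 call was kept in 10 of 22 alternative fits. The second probe sets of Igfbp5 and Fst did not pass the averaged limma test (adjusted p = 0.353 and 0.142). Over all genes, 13.7% were called in this comparison, 7.49% higher and 6.19% lower. The median absolute log2 difference was 0.44 over the 9 genes and 0.19 over all genes. The 9 genes were chosen with earlier results of these data known, so setting them beside all genes does not test the axis. Signals are log2 values, and differences are HFD minus ND or KO minus WT. In whole muscle, fewer cells of a type and less RNA per cell cannot be told apart.

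**Figure D1:**
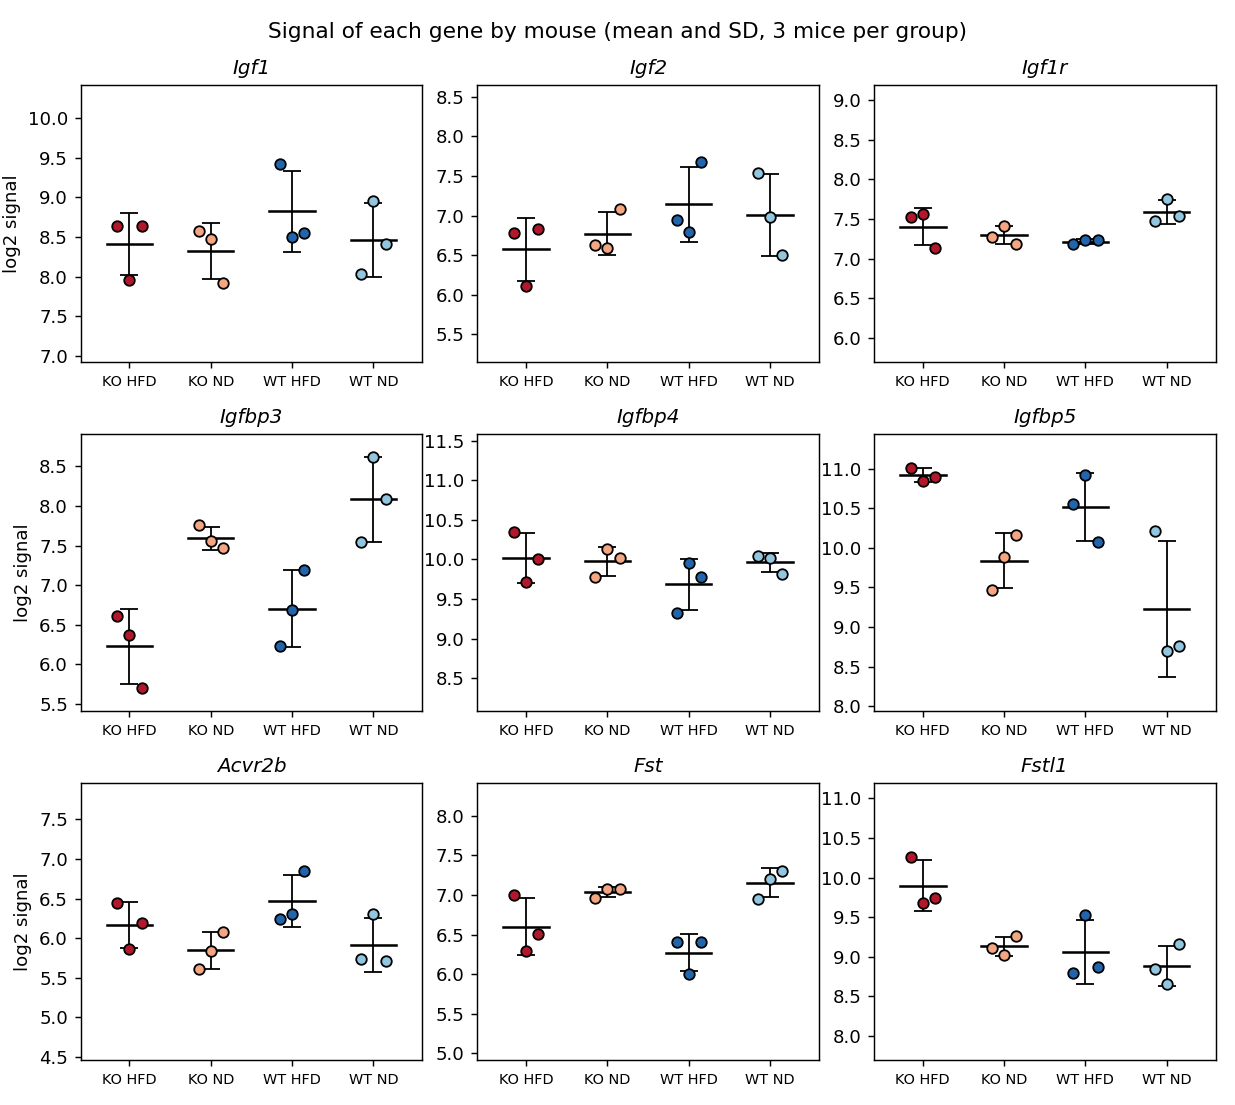
Log2 signal of the 9 measured genes in each mouse, with a panel per gene and columns for KO HFD, KO ND, WT HFD and WT ND mice. Points are mice, and bars give the mean and SD of 3 mice. Igfbp3 lay lower on HFD in both genotypes without overlap, and Fstl1 lay higher in KO HFD than in KO ND mice.

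Neither ligand was called in a diet comparison, and the intervals do not exclude sizable differences. Igf1 (chromosome 10, 87858265 to 87937047) encodes the main growth factor of the axis. It read 8.64, 7.96 and 8.64 in KO HFD, 8.57, 8.47 and 7.92 in KO ND, 9.42, 8.498 and 8.56 in WT HFD and 8.03, 8.96 and 8.41 in WT ND mice. The highest value was that of 1 WT HFD mouse, and the groups overlapped in each diet comparison. The difference was 0.09 in KO (95% interval −0.53 to 0.71) and 0.36 in WT mice (−0.26 to 0.98), with adjusted p-values of 0.904 and 0.494. Igf2 (chromosome 7, 142650768 to 142666816) encodes the growth factor that dominates before birth. It read 6.77, 6.12 and 6.83 in KO HFD, 6.63, 6.59 and 7.08 in KO ND, 6.94, 6.80 and 7.68 in WT HFD and 7.53, 6.98 and 6.50 in WT ND mice. The diets overlapped in both genotypes, with differences of −0.19 in KO (−0.82 to 0.43) and 0.13 in WT mice (−0.49 to 0.76).

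The genes most like Igf1 over the 12 arrays were Coq4, Spns3 and Amotl1, with Pearson r of 0.877, 0.831 and 0.826. The points share scaling and arrays, and these correlations only describe them. For Mstn no such ranking could be made.

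The receptors did not pass the test in any comparison. Igf1r (chromosome 7, 67952257 to 68233668), the tyrosine kinase receptor for both ligands, read 7.52, 7.56 and 7.13 in KO HFD, 7.28, 7.41 and 7.19 in KO ND, 7.18, 7.23 and 7.23 in WT HFD and 7.47, 7.75 and 7.53 in WT ND mice. All WT HFD mice lay below all WT ND mice, while the KO groups overlapped. The diet difference was 0.11 in KO (95% interval −0.19 to 0.41, adjusted p = 0.713) and −0.37 in WT mice (−0.67 to −0.07, adjusted p = 0.131). The difference between these diet effects was 0.48 (0.06 to 0.91, unadjusted p = 0.0289, adjusted p = 0.410).

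Acvr2b (chromosome 9, 119401583 to 119442148), the type II receptor for myostatin and activins, read 6.44, 5.86 and 6.19 in KO HFD, 5.61, 5.84 and 6.08 in KO ND, 6.24, 6.31 and 6.85 in WT HFD and 5.73, 6.31 and 5.71 in WT ND mice. The HFD means were higher in both genotypes, with overlap in each. The diet difference was 0.32 in KO (−0.18 to 0.82, adjusted p = 0.482) and 0.55 in WT mice (0.05 to 1.05, adjusted p = 0.179). Averaged over genotypes it was 0.44 (adjusted p = 0.0975).

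Igfbp3 was lower on HFD in both genotypes, with the lowest averaged difference of the 9 genes. It encodes the main carrier of IGFs in blood (chromosome 11, 7206086 to 7215498). Igfbp3 read 6.62, 6.37 and 5.70 in KO HFD, 7.75, 7.55 and 7.47 in KO ND, 6.23, 6.69 and 7.19 in WT HFD and 7.54, 8.62 and 8.09 in WT ND mice. Every HFD mouse lay below every ND mouse of its genotype. It fell by 1.36 in KO (SE 0.30, adjusted p = 0.0225) and fell by 1.38 in WT mice (SE 0.30, adjusted p = 0.0178), and fell by 1.37 averaged over genotypes (SE 0.21, adjusted p = 0.00131). In linear signal that average was 0.386 times the ND level. The averaged call held under all 22 alternatives. The KO call was lost without KO ND mouse 1 or 2 or KO HFD mouse 3, and the WT call without WT ND mouse 2 or 3 or WT HFD mouse 1 or 2. Both were also lost without the intensity trend, and the adjusted p over all alternatives reached 0.0975 in KO and 0.0834 in WT. The diet effects differed by 0.02 between genotypes, with an interval of −0.88 to 0.92 that does not exclude a sizable difference.

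Igfbp5 moved the other way. It encodes a binding protein that muscle cells make as they differentiate (chromosome 1, 72858065 to 72874865). Igfbp5 read 11.01, 10.85 and 10.90 in KO HFD, 9.47, 9.88 and 10.16 in KO ND, 10.56, 10.92 and 10.07 in WT HFD and 10.21, 8.69 and 8.77 in WT ND mice. The KO groups did not overlap. In WT mice the diets overlapped through WT ND mouse 1, at 10.21. Averaged over genotypes it rose by 1.19 (SE 0.23, 2.28-fold, adjusted p = 0.00563). In WT mice it rose by 1.29 (SE 0.33, adjusted p = 0.0364). The difference in KO mice was 1.08 (SE 0.33, adjusted p = 0.0792). The WT call was lost in 8 of 17 alternatives (adjusted p up to 0.157 over all of them). These were the fits without WT ND mouse 2 or 3 or WT HFD mouse 1 or 2, and those with median centring, no intensity trend, only the groups compared or the 3′ to 5′ ratio in the model. With the 3′ to 5′ ratio in the model the averaged difference was 1.26 with an adjusted p of 0.0574. Its brightest probe set, like the second one of Igfbp3, carries the maker's suffix for probes that match several transcripts.

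Igfbp4 (chromosome 11, 99040005 to 99052655) encodes a binding protein that holds IGFs away from the receptor until it is cleaved. It read 10.34, 9.72 and 10.002 in KO HFD, 9.78, 10.14 and 10.01 in KO ND, 9.33, 9.96 and 9.77 in WT HFD and 10.05, 10.01 and 9.82 in WT ND mice. The groups overlapped, with diet differences of 0.04 in KO (−0.33 to 0.42) and −0.28 in WT mice (−0.65 to 0.10).

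Markers of other cell types were read beside these values. With HFD, 3 of 7 slow fibre genes and 1 of 6 endothelial genes rose in WT mice, against 3.07% of all genes, and 0 of either list passed in KO mice. The summed linear signal of 7 slow fibre genes was 21491 to 27431 in KO HFD, 20903 to 23229 in KO ND, 20014 to 22584 in WT HFD and 14061 to 17608 in WT ND mice. The summed signal of 6 endothelial genes was 832 to 1057 in KO HFD, 789 to 912 in KO ND, 793 to 990 in WT HFD and 656 to 927 in WT ND mice, with overlap. The fibroblast, adipocyte and macrophage sums given beside Fstl1 lay higher in every KO HFD than in every KO ND mouse. Igfbp5 did so too, and Igfbp3 lay lower in every KO HFD mouse. In WT mice these 3 sums overlapped between the diets, whereas Igfbp3 did not overlap and Igfbp5 did so through 1 WT ND mouse. The part of these cell types in the binding protein results was not tested.

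**Figure D2:**
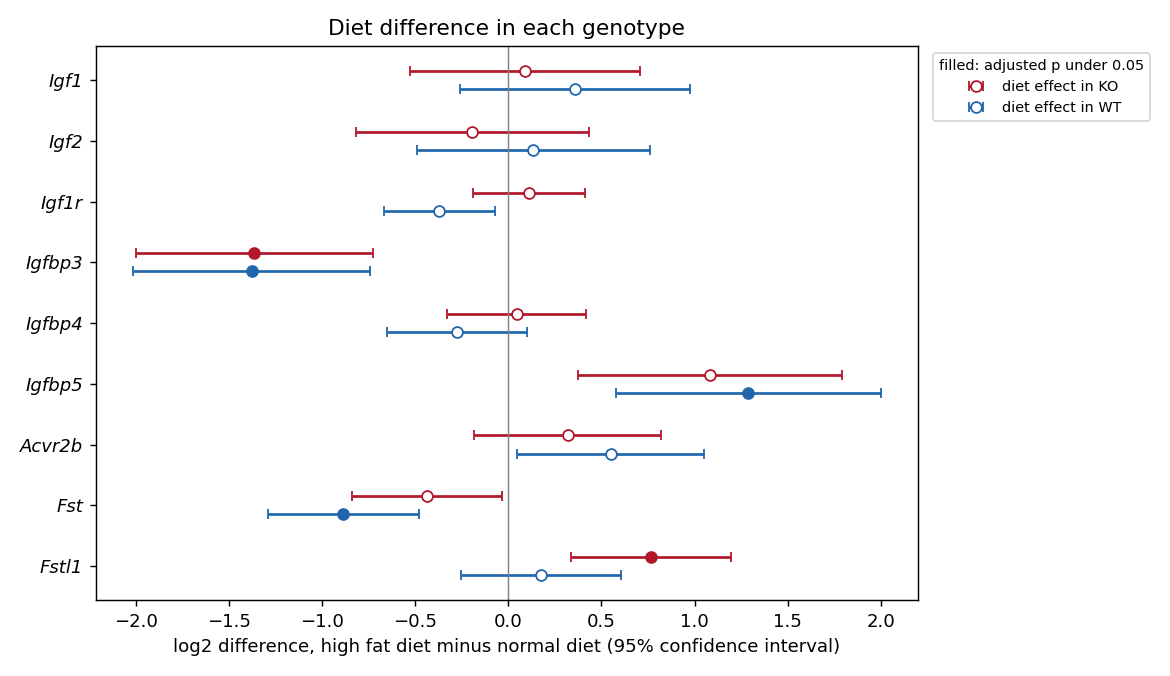
Log2 difference of HFD minus ND for the 9 measured genes, with KO drawn above WT in each row and 95% confidence intervals as bars. Filled points have an adjusted p under 0.05. Igfbp3 was lower on HFD in both genotypes, at −1.36 in KO and −1.38 in WT mice.

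Of the follistatin-type genes, averaged over genotypes, Fst fell with HFD and Fstl1 rose, the Fstl1 call being kept in 10 of 22 alternatives. Fst (chromosome 13, 114452262 to 114458989) encodes follistatin, which neutralises myostatin and activins. Fst read 7.001, 6.29 and 6.51 in KO HFD, 6.96, 7.07 and 7.07 in KO ND, 6.41, 6.00 and 6.41 in WT HFD and 6.96, 7.21 and 7.31 in WT ND mice. The WT groups did not overlap, and the KO groups overlapped through KO HFD mouse 1. In WT mice Fst fell by 0.89 (SE 0.19, 0.541 times the ND level, adjusted p = 0.0169). In KO mice the difference was −0.44 (adjusted p = 0.212). Averaged over genotypes it fell by 0.66 (SE 0.13, adjusted p = 0.00622), under all 22 alternatives with an adjusted p up to 0.0342. The WT call was lost without WT ND mouse 2 or 3 or WT HFD mouse 2 (adjusted p up to 0.0699) and with the 3′ to 5′ ratio in the model (−1.07, adjusted p = 0.0624). The diet effects differed by 0.45 between genotypes (−0.12 to 1.02, adjusted p = 0.577).

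Fstl1 (chromosome 16, 37777055 to 37836516) encodes a secreted glycoprotein related in sequence to follistatin and made by mesenchymal cells. Fstl1 read 10.26, 9.68 and 9.75 in KO HFD, 9.11, 9.02 and 9.26 in KO ND, 8.79, 9.52 and 8.87 in WT HFD and 8.84, 8.66 and 9.16 in WT ND mice. All KO HFD mice lay above the other 9 mice. In KO mice Fstl1 rose with HFD by 0.77 (SE 0.20, 1.70-fold, adjusted p = 0.0472), whereas the WT difference was 0.18 (adjusted p = 0.655). The diet effects differed by 0.59 (95% interval −0.02 to 1.20, adjusted p = 0.488). The KO call was lost without any 1 of the 6 KO mice and kept in 6 of 17 alternatives (adjusted p up to 0.154 over all of them). Averaged over genotypes it rose by 0.47 (adjusted p = 0.0425), a call kept in 10 of 22 alternatives. Among the fits that left out a mouse, it was kept only without WT ND mouse 3, WT HFD mouse 1 or 3, or KO HFD mouse 2 (adjusted p up to 0.326 over all alternatives).

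The medians of fibroblast, adipocyte and macrophage markers were also highest in KO HFD mice. The summed linear signal of 8 fibroblast genes was 10644 to 16170 in KO HFD, 6226 to 7903 in KO ND, 5120 to 8650 in WT HFD and 5358 to 6709 in WT ND mice. For the 5 tested of 7 adipocyte genes it was 15543 to 17192 in KO HFD, 7088 to 11187 in KO ND, 8589 to 15447 in WT HFD and 7544 to 9182 in WT ND mice. Fabp4 had the highest mean log2 signal of these genes (13.04), ahead of Adipoq (10.92), so it weighs most in the adipocyte sum. For 7 macrophage genes it was 3693 to 6367 in KO HFD, 2426 to 3225 in KO ND, 2044 to 4295 in WT HFD and 3393 to 3884 in WT ND mice.

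In KO mice, 5 of the 8 fibroblast genes rose with HFD, against 2.66% of all genes. Of the adipocyte genes 1 of 5 (Fabp4) did so, and of the macrophage genes 3 of 7. Col3a1, Col1a2 and Dpt, which encode collagens and a matrix protein, rose by 1.24, 0.73 and 0.66 (adjusted p = 0.0166, 0.0473 and 0.0284). Col1a1 and Postn, named after their values were seen, rose by 0.87 and 1.71. In WT mice none of the 8 passed. The WT HFD mouse with the highest Fstl1 (9.52) also had the highest fibroblast, adipocyte and macrophage sums of its group. The same held for the mouse with the highest Fstl1 in KO HFD and in KO ND, but not in WT ND. There the mouse with the highest Fstl1 (9.16) had the lowest adipocyte sum and the middle fibroblast and macrophage sums. The part of these cell types in the Fstl1 result was not tested.

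**Figure D3:**
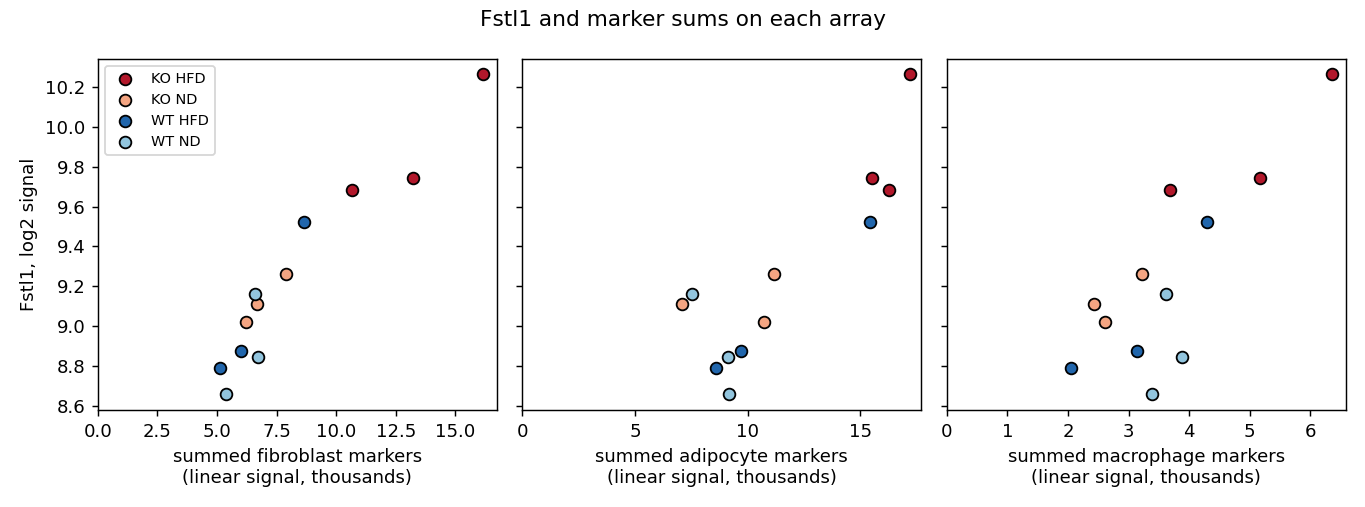
Log2 signal of Fstl1 in each mouse against the summed linear signal of fibroblast, adipocyte and macrophage markers. The 3 KO HFD mice had both the highest Fstl1 values and the highest fibroblast and adipocyte sums.

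Between genotypes, limma called none of the 9 genes at an adjusted p under 0.05. On HFD 0.732% of all genes were called and on ND 0.414%. At an unadjusted p under 0.05, 1 of the 9 passed on HFD and 0 on ND. The gene that did so on HFD was Fstl1, at 9.90 ± 0.32 in KO HFD and 9.06 ± 0.40 in WT HFD mice (SD, n = 3). That difference was 0.84 (95% interval 0.41 to 1.27, adjusted p = 0.0677), and without WT HFD mouse 2 it was 1.07 (adjusted p = 0.0119). On ND the Igfbp5 difference was 0.61 (adjusted p = 0.536), and without WT ND mouse 1 it was 1.11 (adjusted p = 0.0486). Averaged over diets, 1.61% of all genes and 0 of the 9 were called, with 3 at an unadjusted p under 0.05. Fstl1 was 0.54 higher (adjusted p = 0.0773), Igfbp5 0.51 (adjusted p = 0.318) and Igfbp3 −0.48 (adjusted p = 0.286). Without WT HFD mouse 2 the averaged Fstl1 difference was 0.66 (adjusted p = 0.0157), and without WT ND mouse 1 that of Igfbp5 was 0.76 (adjusted p = 0.0271). WT HFD mouse 2 had the highest Fstl1 of its group (9.52), and WT ND mouse 1 the highest Igfbp5 (10.21). Leaving out the highest WT mouse widens such a difference by construction. No other fit without a mouse called either gene between genotypes. For the difference between the diet effects, 0.141% of all genes and 0 of the 9 were called, with 1, Igf1r, at an unadjusted p under 0.05.

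Within each genotype alone, 2 of the 9 genes were called with diet in KO mice, against 4.54% of all genes (2.66% higher, 1.88% lower), and 3 of the 9 in WT mice, against 6.06% (3.07% higher, 2.99% lower). The KO calls were Igfbp3 and Fstl1, and the WT calls were Igfbp3, Igfbp5 and Fst. Apart from Igfbp3, the genes called in 1 genotype were not shown to respond differently in the other, since no difference between their diet effects passed.

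The second probe sets of these genes gave a mixed picture. The 9 genes had 28 probe sets, of which 23 were above the signal filter. Of the 14 that were not the brightest, 8 had the sign of the brightest one in the KO diet effect and 12 in the WT diet effect. The second Igfbp3 probe set differed by −1.02 in KO (adjusted p = 0.0581) and fell by 1.06 in WT mice (adjusted p = 0.0407). The second Fstl1 probe set differed by 0.70 in KO (adjusted p = 0.0755) and 0.29 in WT mice. P-values of single probe sets were adjusted over all probe sets with 1 gene above the filter.

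The second Fst probe set fell by 1.60 in WT mice (adjusted p = 0.0304) and differed by 0.29 in KO mice (adjusted p = 0.750). Averaged over genotypes it differed by −0.65 (adjusted p = 0.142), so the averaged Fst call rests on the brightest probe set. The second Igfbp5 probe set differed by 0.40 in KO (adjusted p = 0.836) and 1.27 in WT mice (adjusted p = 0.362), and WT ND mouse 2 read 2.11 there. In Igf1r the other 3 probe sets differed by −0.15, −0.10 and −0.21 in KO and by −0.82, −0.66 and −0.36 in WT mice, with the lowest adjusted p at 0.0504. The other 3 Igf1 probe sets differed by 0.01 to 0.72 in KO and −0.10 to 0.61 in WT mice, and the other 4 of Igfbp4 by −0.13 to 0.10 in KO and −0.14 to 0.02 in WT mice. None of these passed.

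**Figure D4:**
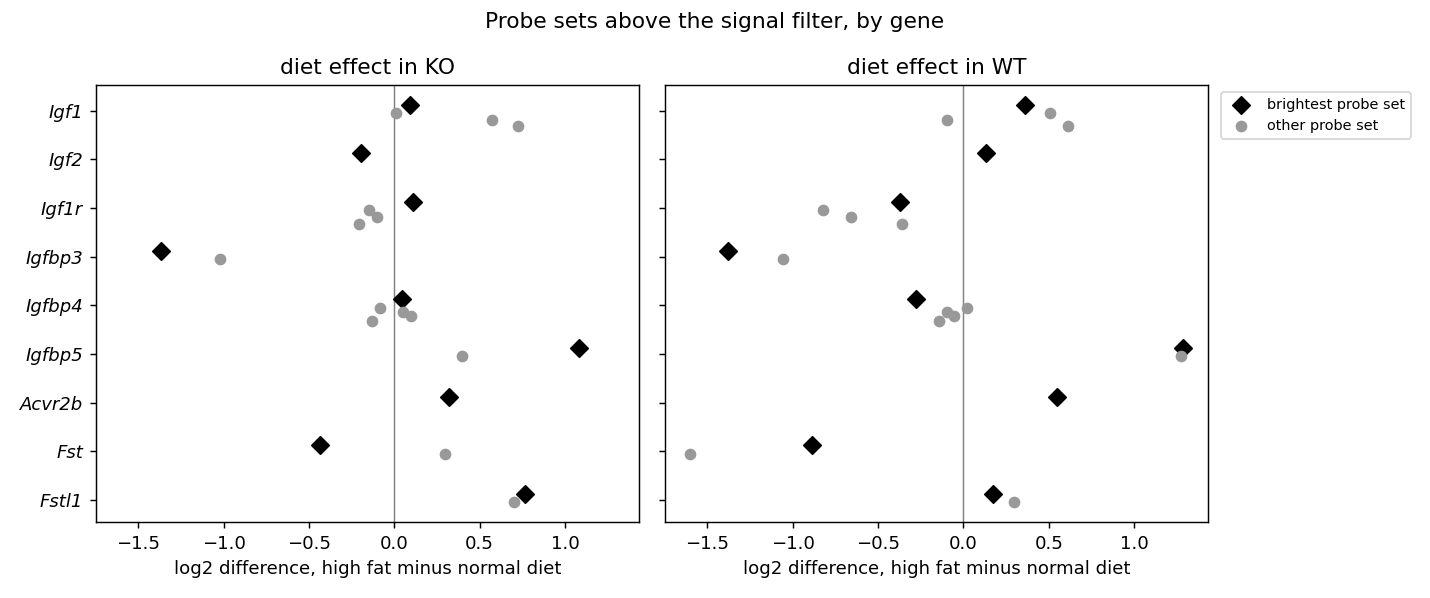
Log2 difference of HFD minus ND for every probe set above the signal filter, in KO (left) and WT mice (right). Diamonds are the brightest probe set of a gene and circles the others. Both Igfbp3 probe sets lay below −1 in each genotype, whereas the Fst probe sets had opposite signs in KO mice.

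Beyond the 9 genes, lists of other genes on the same pathways were read from the same fit. Among 28 tested genes of the signal inside the cell, 2 rose and 4 fell with HFD averaged over genotypes, against 13.7% of all genes called (7.49% higher, 6.19% lower). The list median was −0.09, against 0.06 over all genes. Irs2, the docking protein of the insulin and IGF receptors, fell by 1.005 (adjusted p = 0.00134). Eif4ebp1, a repressor of translation that mTOR switches off, fell by 0.79 (adjusted p = 0.000299), and Sesn1, a stress-induced inhibitor of mTOR, fell by 1.65 (adjusted p = 0.00174). These 3 calls held under all 22 alternatives. Foxo1, a transcription factor restrained by AKT, fell by 0.57 (adjusted p = 0.0445), a call kept in 9 of 22 (adjusted p up to 0.151) and, of the fits without a mouse, only without WT ND mouse 1, KO ND mouse 1 or KO HFD mouse 3. The 2 that rose, named beyond the naming rule, were Rps6, a ribosomal protein (0.55, adjusted p = 0.0124), and Mtor, the kinase itself (0.30, adjusted p = 0.0263). Rps6 was kept in 21 of 22 alternatives, the exception being the 3′ to 5′ ratio in the model (adjusted p = 0.241). Mtor was kept in 15 (adjusted p up to 0.181) and lost without WT ND mouse 2, WT HFD mouse 3, KO ND mouse 2, or KO HFD mouse 1 or 3.

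Irs2 averaged 7.03 ± 0.16 in KO HFD, 8.37 ± 0.33 in KO ND, 7.13 ± 0.42 in WT HFD and 7.81 ± 0.26 in WT ND mice (SD, n = 3). Within KO mice, Irs2 fell by 1.34 and Eif4ebp1 by 0.96 (adjusted p = 0.00488 and 0.00282), and both calls held under all 17 alternatives. Within WT mice 3 of the 28 genes fell and 1 rose, against 6.06% of all genes called (3.07% higher, 2.99% lower). Sesn1 fell by 1.95 (adjusted p = 0.0109), and the call was lost without WT ND mouse 2 and with the 3′ to 5′ ratio in the model (adjusted p = 0.0884). Eif4ebp1 fell by 0.61 (adjusted p = 0.0196), which was lost without WT ND mouse 2 or 3 or WT HFD mouse 2, without the intensity trend and with the 3′ to 5′ ratio in the model (adjusted p up to 0.143). Pik3cb, a catalytic subunit of PI3K, fell by 0.90 (adjusted p = 0.0453) and Mtor rose by 0.46 (adjusted p = 0.0318), each lost in 5 of the 6 fits that left out a WT mouse. Of those fits, Pik3cb was kept only without WT ND mouse 3, and Mtor only without WT ND mouse 1. Over all alternatives Pik3cb was kept in 5 of 16 and Mtor in 8 of 17 (adjusted p up to 0.197 and 0.162). Mtor was also lower in KO than in WT mice averaged over diets (−0.47, adjusted p = 0.0122, under all 22 alternatives). On HFD alone it averaged 8.13 ± 0.13 in KO and 8.76 ± 0.11 in WT mice (difference −0.63, adjusted p = 0.0277), kept only without WT HFD mouse 2 among the 6 fits that left out an HFD mouse, and in 9 of 17 alternatives (adjusted p up to 0.0939).

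Of 12 tested genes for IGF binding, cleavage and other receptors, 2 rose and 0 fell with HFD averaged over genotypes, a share near the 13.7% of all genes called (7.49% higher, 6.19% lower). Igfbp7, a low-affinity binding protein of vessel walls, rose by 0.33 (adjusted p = 0.0401), and Ghr, the growth hormone receptor, by 0.31 (adjusted p = 0.0196). The Igfbp7 call was kept in 11 of 22 alternatives (adjusted p up to 0.262) and lost without WT ND mouse 2 or 3, WT HFD mouse 2, KO ND mouse 1 or 2, or KO HFD mouse 1 or 3. The Ghr call was kept in 17 (adjusted p up to 0.188) and lost without WT HFD mouse 2 or KO ND mouse 1. In KO mice Igfbp7 rose by 0.52 (adjusted p = 0.0472), kept in 7 of 17 alternatives and, among the fits that left out a KO mouse, only without KO HFD mouse 2. In WT mice Ghr rose by 0.50 (adjusted p = 0.0208), kept in 10 of 17 and lost without WT ND mouse 2 or 3 or WT HFD mouse 1 or 2. The fibroblast, adipocyte and macrophage sums given beside Fstl1 moved with Igfbp7 in KO mice, and their part was not tested. Insr, the insulin receptor, was lower in KO than in WT mice averaged over diets (−0.34, adjusted p = 0.0340), kept in 10 of 22 and, of the fits without a mouse, only without WT ND mouse 1 or 3 or KO HFD mouse 2 (adjusted p up to 0.0938).

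On the activin and TGF-beta side, 3 of 24 tested genes rose and 1 fell with HFD averaged over genotypes, a share near the 13.7% of all genes called (7.49% higher, 6.19% lower). The gene that fell was Acvr1b, a type I receptor for activins and myostatin, at 9.26 ± 0.33 in KO HFD, 10.15 ± 0.33 in KO ND, 9.12 ± 0.44 in WT HFD and 10.43 ± 0.13 in WT ND mice (SD, n = 3). It fell by 0.89 in KO (adjusted p = 0.0375), by 1.31 in WT (adjusted p = 0.00546) and by 1.10 on average (adjusted p = 0.000797). The WT and averaged calls held under all their alternatives, and the KO call was kept in 11 of 17 (adjusted p up to 0.1505) and lost without KO ND mouse 2 or 3 or KO HFD mouse 1 or 3. Smad3, a signal transducer of this branch, rose by 0.59, Ltbp3, which binds latent TGF-beta, by 0.32, and Acvr2a, a second type II receptor, by 0.27 (adjusted p = 0.0481, 0.0114 and 0.0357). Of these, Ltbp3 was kept in 20 of 22 alternatives, Acvr2a in 9 and Smad3 in 8 (adjusted p up to 0.261, 0.192 and 0.115). Among the fits without a mouse, Ltbp3 was kept in all 12, Acvr2a only without WT ND mouse 1 or WT HFD mouse 2, and Smad3 only without WT ND mouse 3, WT HFD mouse 3 or KO HFD mouse 1. In WT mice Ltbp3 also rose by 0.39 (adjusted p = 0.0399), kept in 9 of 17 and lost without WT ND mouse 2 or 3 or WT HFD mouse 1 or 2.

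In the BMP branch, which opposes myostatin in muscle, 1 of 18 tested genes rose and 3 fell with HFD averaged over genotypes, against 13.7% of all genes called (7.49% higher, 6.19% lower). Fbxo30, a ubiquitin ligase of muscle atrophy that BMP signalling represses, fell by 0.77 (adjusted p = 0.00173). Smad1 and Smad5, transducers of BMP signals, fell by 0.67 and 0.60 (adjusted p = 0.0180 and 0.0287). The Fbxo30 and Smad1 calls held under all 22 alternatives, and the Smad5 call in 12, of the fits without a mouse only without WT ND mouse 1, WT HFD mouse 3 or KO HFD mouse 1 (adjusted p up to 0.0731). Id2, a target of BMP signals, rose by 0.64 (adjusted p = 0.0286), kept in 11 of 21 (adjusted p up to 0.228) and lost without WT ND mouse 1 or 2, WT HFD mouse 2, KO ND mouse 1 or 3, or KO HFD mouse 2 or 3. Within KO mice Id2 rose by 1.04 (adjusted p = 0.0332) and was kept in 6 of 16 alternatives and lost without any 1 of the 6 mice. Fbxo30 fell by 0.78 in KO and by 0.76 in WT mice (adjusted p = 0.0271 and 0.0231), kept in 10 and 11 of 17 alternatives. Of the fits without a mouse, the KO call was kept only without KO ND mouse 3, and the WT call was lost without WT ND mouse 2 or WT HFD mouse 1 or 2. No gene of the 4 lists passed the test of a difference between the diet effects.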

How the data were processed

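The deposited values are log2 signals of 45101 probe sets, which the authors made with MAS5 per the submitters' processing notes, where no version is named. Any later filter is not stated there. From the values, the linear 2 to 98% trimmed mean was equal on all arrays. They were used as deposited, with 64 controls removed. Of the other 45037, 34945 carried 1 gene symbol in GEO's platform annotation, 932 several and 9160 none. Probe sets with a mean above the median of 3.78 (13.8 linear) were kept, and the brightest stood for each gene.

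One model over 12 arrays was fitted in limma 3.58.1 (R 4.3.3) with an intensity trend, for 7 contrasts, and Benjamini-Hochberg adjustment over 11345 genes. The fit was checked on simulated data. Array number limits the precision. The members, pathway lists and marker lists were chosen with earlier results of these data known. From each pathway list, up to 4 called genes per contrast with the largest log2 difference are named, from each marker list the 3 highest, and for Igf1 the 3 most correlated genes. Figures used matplotlib 3.10.9. Alternatives were added offsets, other filters, quantile and median scaling, all probe sets, no trend, array weights, the 3′ to 5′ covariate, fits of the compared groups alone, and fits without each mouse.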

Additional observations from a re-analysis of the deposited data

How the results depend on the processing

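Of 1199 values of the 9 genes under alternatives, 1145 kept their side of the threshold, 45 lost a call and 6 gained one. A further 3 that were never called moved by over 1 SD, and 0 called values changed sign. Small uncalled differences among the 1145 could change sign. With diet in KO mice, 2 genes were called; 1 was called without the filter, with median centring, with all probe sets and with the 3′ to 5′ covariate, and 0 without the intensity trend. In WT mice 3 were called, and 1 without the trend or with the covariate. Averaged over genotypes 4 were called, and 2 (Igfbp3 and Fst) with the covariate. Leaving out a mouse gave 0 to 1 genes in KO, 0 to 3 in WT and 3 to 4 averaged. It gave 0 to 1 for the genotype effect on HFD, on ND and averaged, and 0 to 0 for the difference between diet effects. The cause was not tested. With the covariate, all genes called with diet numbered 265 in KO, 186 in WT and 522 averaged, against 515, 687 and 1552; leaving out a mouse gave 133 to 363, 199 to 918 and 1021 to 1689. The covariate moved Igf1r in WT mice to −0.64 and Acvr2b to 0.22. Median centring shifted all genes by −0.12 in the KO diet effect, where Fstl1 was then 0.65 (adjusted p = 0.109). Igfbp5 in KO mice was called with array weights (1.03, adjusted p = 0.0464) and with only the groups compared (adjusted p = 0.00611). No paired analysis was possible because each mouse has its own number and the groups share none.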

Other observations

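Igfbp3 and Igfbp5 ran opposite to each other over the arrays of both diets. Over the 12 arrays their Pearson r was −0.902, the lowest among the 9 genes, on values that share arrays and scaling. Diet moved these genes in opposite directions, so this r includes the diet differences given above. Within groups, the mouse with the highest Igfbp3 had the lowest Igfbp5 in 3 of 4 groups, KO HFD being the exception. This pattern was noticed in the data and was not tested.

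The second Igf2 probe set was below the signal filter, with a mean of 0.92. It read 0.36, 1.03 and 0.76 in KO HFD, 0.63, −0.31 and 0.93 in KO ND, 3.78, 0.71 and 3.46 in WT HFD and −0.52, 0.71 and −0.45 in WT ND mice. A pair of WT HFD mice thus stood above the rest, which the brightest Igf2 probe set did not show.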
